A study of Mus musculus with 2 samples.

Results

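The genes described here are 8 core genes of the Notch pathway as endothelial cells (ECs) use it. They are the receptors Notch1 and Notch4, the ligands Dll4, Jag1 and Jag2, and the target genes Hey1, Hes1 and Heyl. They were chosen by name as genes of the pathway, and all 8 are listed among the 17641 genes of the normal table and the 15644 genes of the tumor table. They were measured in 2 single-cell libraries of CD45-/CD31+ cells sorted by FACS, 1 of normal ECs (NECs) and 1 of tumor ECs (TECs), with 1 library per group and therefore no replicate.

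The NECs came from pooled mammary glands of C57BL/6 mice of 6 to 8 weeks, and the TECs from pooled tumors of E0771, a mouse mammary carcinoma line that was grown in the mammary gland. The labels give strain and age for the NEC library alone, and the methods of the study give female mice of 8 weeks on a C57BL/6 background throughout. Those methods also name Cdh5-CreERT2:ZsGreen lines, with or without floxed Dnmt1, and which animals gave these libraries is not stated in the sources used here. Some labels of that library name tumor cells, and it was read as normal by its title. A cell was counted as endothelial when it had 200 or more genes, less than 10% mitochondrial UMIs (unique molecular identifiers, which mark single RNA molecules), no UMI of Ptprc, Myh11, Epcam or Cspg4, and at least 1 UMI of Cdh5 or Pecam1. In TECs, Cdh5 plus Pecam1 also had to exceed Rhox5, Hmga2 and Krt8, which mark the tumor cells. This left 4940 NECs of 9047 barcodes and 261 TECs of 704.

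Notch receptors are cut after a ligand on a neighbouring cell pulls on them, and the freed intracellular part joins the DNA-binding protein RBPJ in the nucleus to switch on genes of the Hes and Hey families. In sprouting vessels, tip cells present DLL4 to the stalk cells behind them and so hold back new tips, and JAG1 can compete with DLL4 for the receptor. The same pathway sets and keeps arterial identity, and veins run with less of it.

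The libraries differed in depth. The median was 2976.5 UMIs per NEC and 16989 per TEC, and the sums behind each level were 17327221 and 4646103 UMIs. Levels are given as counts per 1000000 UMIs (CPM) of the summed cells with a 95% Poisson interval, ratios with a 95% exact conditional interval and shares of cells with a 95% Clopper-Pearson interval. All of these cover counting error only. Since cells of 1 library are not replicates, no test was made, and a ratio of 2-fold or more is given as a size and not as a call of significance. The 2 tables shared 3 barcode sequences, none of them of endothelial cells in both. Cdh5, which was used to choose the cells and so had to be present, was at 984 CPM in NECs and 1151 CPM in TECs. The 10 listed endothelial genes, which include Cdh5 and Pecam1, were all detected in both libraries. They summed to 8292 CPM in NECs and 7605 CPM in TECs.

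In GENCODE M21 (build GRCm38), the genes lie at chr2:26457903-26516663 (Notch1, minus strand), chr17:34564268-34588503 (Notch4, plus), chr2:119325784-119335962 (Dll4, plus), chr2:137081456-137116644 (Jag1, minus), chr12:112907819-112929776 (Jag2, minus), chr3:8663359-8667256 (Hey1, minus), chr16:30064384-30067796 (Hes1, plus) and chr4:123233556-123249875 (Heyl, plus).

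The promoters of Dll4 and Notch4 are shown because, over all 21 cell clusters of both libraries, Notch4 was the gene whose levels were most like those of Dll4. Promoters of 5 of the 8 genes (not Hes1, Hey1 and Heyl) were taken from RefSeq (build GRCm38.p6). They run from 250 bases before the gene's start in RefSeq to 50 after it. Those of Dll4 (chr2:119325534-119325833, plus strand) and Notch4 (chr17:34564045-34564344, plus strand) are given 5′ to 3′, with CAGGAA, a core that ETS factors of endothelial genes bind, in capitals on either strand.
Dll4: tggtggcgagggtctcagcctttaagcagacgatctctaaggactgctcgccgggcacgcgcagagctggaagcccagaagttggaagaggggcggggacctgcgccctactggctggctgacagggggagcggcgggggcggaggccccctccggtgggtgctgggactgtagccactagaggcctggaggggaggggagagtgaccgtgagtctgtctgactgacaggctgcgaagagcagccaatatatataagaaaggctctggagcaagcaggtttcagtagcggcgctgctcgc
Notch4: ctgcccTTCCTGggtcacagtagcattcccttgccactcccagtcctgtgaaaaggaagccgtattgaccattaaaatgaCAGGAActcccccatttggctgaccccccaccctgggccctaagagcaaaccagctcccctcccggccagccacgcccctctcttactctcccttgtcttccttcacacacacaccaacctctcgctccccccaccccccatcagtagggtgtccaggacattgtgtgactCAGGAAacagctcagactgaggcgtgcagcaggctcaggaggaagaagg

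CAGGAA was matched 3 times in the Notch4 window, 1 time in that of Notch1, and in none of Dll4, Jag1 and Jag2. Of 32851 mouse promoters of this length, 30.6% hold it on either strand. The Notch1 window (chr2:26503773-26504072), set by the RefSeq start, lies inside the gene as placed above by GENCODE and not at its start there. GTGGGAA, the core that RBPJ binds, was in none of the 5 windows and in 6.38% of all promoters. Among other targets of the pathway, it was matched 2 times each in the promoters of Hes5 and Hey2, and not in those of Nrarp and Efnb2. The motifs end in the same GGAA but differ before it, so that no site is counted for both. The Dll4 window was 63.7% G and C, against 58.3% for Notch4 and 86% for Jag2.

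In TECs the Notch4 and Dll4 levels were higher than in NECs, and those of Notch1, Jag1, Jag2, Hey1 and Hes1 lower, while Heyl had too few UMIs to read a direction. Of the 8 genes, 3 were lower by 2-fold or more (Notch1, Hey1 and, on 3 UMIs in TECs, Heyl) and none was higher by that much. Of all 12230 genes with 20 or more UMIs, 24.3% were lower and 10.8% higher by 2-fold, or 35% in either direction. The median log2 ratio was -0.81 over the 8 genes and -0.23 over all genes, so that most of the table lay below 0 as well. Relative to the median of all genes, Dll4 was past 2-fold upward, at a log2 ratio of 1.06, and no gene was past it downward.

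Notch1, the main endothelial receptor, was at 211 CPM (204 to 218) in NECs and 96.6 CPM (87.9 to 106) in TECs. The log2 ratio of TECs over NECs was -1.13 (-1.27 to -0.99), or 2.19-fold lower. Notch4, a receptor largely restricted to endothelium, was at 80.0 CPM (75.9 to 84.4) in NECs and 110 CPM (101 to 120) in TECs. Its log2 ratio was 0.46 (0.31 to 0.61). The receptors thus differed in sign, and Notch4 supplied 53.2% (50.0 to 56.4%) of the UMIs of Notch1 plus Notch4 in TECs and 27.5% (26.2 to 28.7%) in NECs.

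Of the ligands, Dll4, which is presented by tip and arterial cells, was at 122 CPM (117 to 128) in NECs and 218 CPM (205 to 232) in TECs. The log2 ratio was 0.83 (0.72 to 0.94), or 1.78-fold higher. Jag1 was at 44.2 CPM (41.1 to 47.5) and 24.8 CPM (20.4 to 29.7), with a log2 ratio of -0.84 (-1.13 to -0.55). Both Jagged ligands were lower in TECs. Jag2 was at 99.4 CPM (94.8 to 104) in NECs and 57.9 CPM (51.2 to 65.2) in TECs, with a log2 ratio of -0.78 (-0.97 to -0.59). Among the UMIs of Dll4, Dll1, Jag1 and Jag2 together, Dll4 made up 69.6% (67.2 to 72.0%) in TECs and 40.1% (38.8 to 41.4%) in NECs.

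Of the target genes, Hey1, a repressor that marks arterial ECs, was at 68.1 CPM (64.3 to 72.1) in NECs and 29.7 CPM (24.95 to 35.1) in TECs. With a log2 ratio of -1.20 (-1.46 to -0.94) it was 2.29-fold lower in TECs, opposite in sign to the ratio of Dll4. Hes1, a related repressor that also answers to other pathways, was at 207 CPM (201 to 214) and 126 CPM (116 to 137), with a log2 ratio of -0.72 (-0.84 to -0.59). Heyl, a target best known from mural cells, had 26 UMIs over all NECs and 3 over all TECs. Its levels were 1.501 CPM (0.980 to 2.20) and 0.646 CPM (0.133 to 1.89), and the interval of the log2 ratio ran from -3.58 to 0.49. No direction can be read for Heyl.

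**Figure D1:**
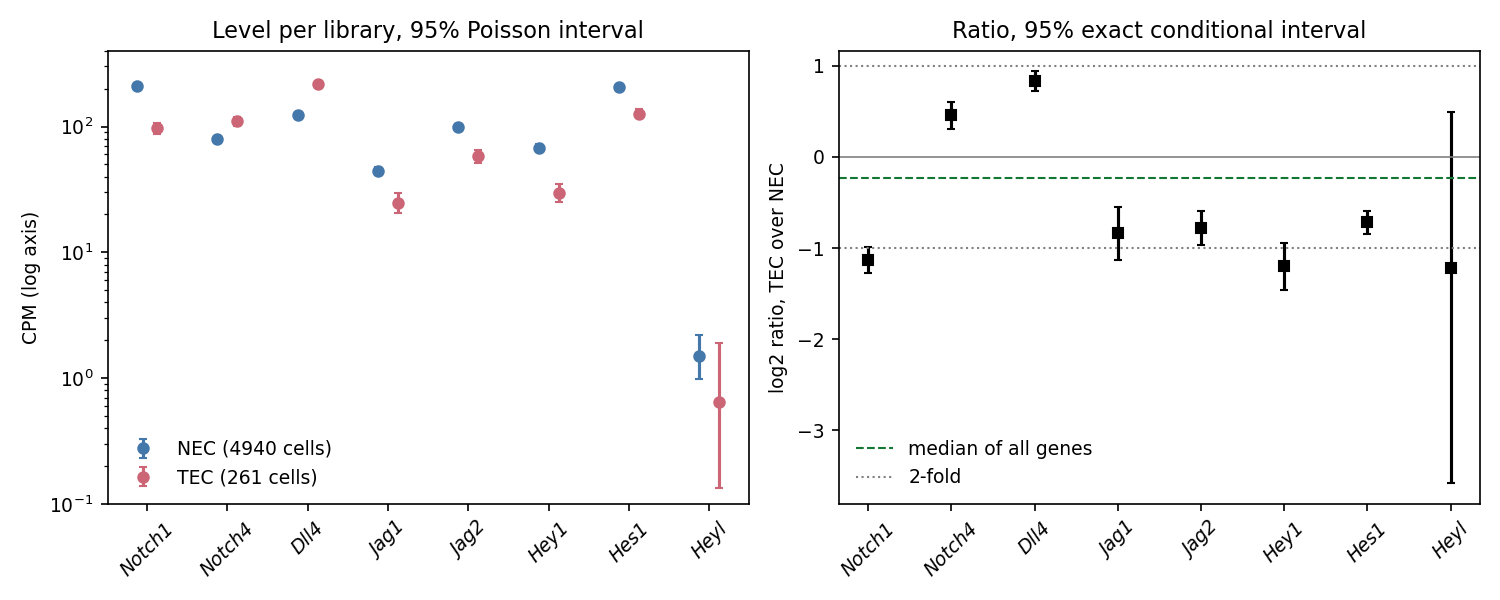
Levels of the 8 Notch genes in CPM (left, log axis, 95% Poisson interval) and log2 ratio of TECs over NECs (right, 95% exact conditional interval), with 1 library per group. Notch4 and Dll4 lie above 0 and 5 genes below, the interval of Heyl spans 0, and the dashed line is the median of all genes at -0.23.

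Several things besides the tissue differed between the libraries, and their part in these ratios was not tested. Immediate early genes (9 listed, all detected), which are induced during tissue digestion, summed to 11432 CPM in NECs and 2464 CPM in TECs. The 13 mitotic genes summed to 123 and 758 CPM, the 10 tip cell genes to 702 and 3248 CPM, and the 9 capillary genes to 26883 and 5230 CPM. Mural genes (10 of 10 detected in both) summed to 277 and 54.2 CPM, and Rgs5, a pericyte marker, was at 107 and 2.80 CPM.

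The sizes differed when cells were left out or thinned. Without cycling cells, 160 TECs and 4893 NECs were left, Dll4 was past 2-fold upward with a log2 ratio of 1.13, and none of the 8 genes was past it downward, with Notch1 at -0.91 and Hey1 at -0.86. With each cell thinned to 1900 UMIs, the Jag1 and Jag2 ratios shrank to -0.17 and -0.23, while Hey1 was at -1.64 and Dll4 at 0.94. Among the thinned cells, a Jag1 UMI was found in 15 of 239 TECs (6.28%, 3.55 to 10.1%) and 277 of 3831 NECs (7.23%, 6.43 to 8.10%). In thinned normal barcodes without Cdh5 or Pecam1 the share was 6.67% (5.19 to 8.43%), so that the Jag1 share does not separate NECs from these barcodes, of which 265 had mural genes and held 141 of the 347 Jag1 UMIs. Thinning also left out 22 TECs and 1109 NECs that were too shallow and gave each cell the same weight, and these were not told apart. The signs of the 7 ratios other than that of Heyl were the same under all 12 alternatives.

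Shares of cells at equal depth gave the same order for Dll4 and Notch1, and for Notch4 the intervals overlapped, at 18.8% (14.1 to 24.4%) of thinned TECs and 14.8% (13.7 to 16.0%) of thinned NECs. A Dll4 UMI was found in 32.6% of thinned TECs (26.7 to 39.0%) and 18.7% of thinned NECs (17.5 to 19.96%), and before thinning in 77.8% and 28.5%. In barcodes without any Cdh5 or Pecam1 UMI, of which there were 154 in the tumor library (median 37452 UMIs) and 1178 in the normal library (median 7414 UMIs), the share after thinning was 0 of 130, which allows up to 2.80% by its interval, and 1.44% (0.788 to 2.40%). Dll4 was thus far above this background in both libraries. Notch1 was found in 15.9% (11.5 to 21.2%) of thinned TECs and 32.6% (31.1 to 34.1%) of thinned NECs.

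The share in these other barcodes was not low for every gene. A Notch1 UMI was in 12.3% (7.20 to 19.2%) of the thinned tumor barcodes without Cdh5 or Pecam1, which is inside the interval of the thinned TECs. Hes1, which many cell types use, was in 25.7% (22.9 to 28.5%) of the thinned normal barcodes without Cdh5 or Pecam1 and in 26.0% (24.6 to 27.4%) of the thinned NECs, so that its share does not separate ECs from other cells in the normal library. In the tumor library the shares were 13.1% (7.81 to 20.1%) and 18.0% (13.3 to 23.5%), with overlapping intervals. On all UMIs its level there was 48.7 CPM (43.6 to 54.1) in these barcodes and 126 CPM (116 to 137) in TECs. Hey1 was in 10.3% (9.34 to 11.3%) of thinned NECs, 3.77% (1.74 to 7.03%) of thinned TECs, and 2.77% (1.83 to 4.01%) of the thinned normal barcodes without Cdh5 or Pecam1. In the thinned tumor barcodes of that kind it was in 0 of 130, which allows up to 2.80%. On all UMIs Hey1 was at 0 CPM (up to 0.534) in the tumor barcodes without Cdh5 or Pecam1, against 29.7 CPM in TECs.

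At equal depth, a receptor UMI (Notch1 or Notch4) was found in 42.0% of NECs and 31.8% of TECs. A ligand UMI (Dll4, Jag1 or Jag2) was found in 35.6% and 42.7%. Among thinned NECs, 24.9% (23.5 to 26.3%) had a UMI of Notch1 or Notch4 and none of Dll4, Jag1 or Jag2, and 18.5% (17.3 to 19.8%) had a ligand UMI and no receptor UMI. In thinned TECs these shares were 15.5% (11.1 to 20.7%) and 26.4% (20.9 to 32.4%). Both were found together in 17.1% of NECs and 16.3% of TECs. Ligand-only cells were therefore more frequent than receptor-only cells in TECs, and less frequent in NECs. At 1900 UMIs a cell with no UMI may still use the gene, so that these shares do not show receptor and ligand to be in separate cells.

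Each NEC was put in a vessel class by markers that are not Notch genes. Arterial cells had a UMI of Gja5 or Bmx and none of Lbp or Ackr1 (370 cells), venous cells had at least 2 UMIs of Lbp, Ackr1 and Vwf together and none of Gja5 or Bmx (519 cells), and the rest were called capillary (4020 cells). In 31 cells both kinds of marker were present, and these are in no class. The classes are not pure, since 202 arterial cells rested on a single UMI. Of the listed arterial markers, 6 were neither in the rule nor pathway genes. They summed to 5070 CPM in the arterial class, 940 CPM in the capillary class and 1635 CPM in the venous class. Sema3g, which is among them, was at 551, 67.4 and 35.4 CPM in these classes. The arterial class was the highest in both, and the order of capillary and venous cells differed. Markers of high endothelial venules, the lymph node vessels that admit lymphocytes, summed to 29520 CPM in the venous class and 1705 CPM in the capillary class.

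Among the 8 genes, 6 were higher in the arterial than in the capillary class, and 3 of them by 2-fold or more (Jag1, Jag2 and Hey1), where 5.97% of 11798 genes were higher by 2-fold. Heyl was lower by 2-fold, on 1 UMI in the arterial class, where 8.94% of genes were (14.9% in either direction). Against the venous class, the arterial class was higher by 2-fold or more in 5 of the 7 genes with enough UMIs, where 6.91% of 9843 genes were, and in none was it lower, where 7.14% were (14.1% in either direction). The median log2 ratio of arterial over venous cells was 2.33 for the 7 genes and 0.09 for all genes.

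Notch1 was at 279 CPM (252 to 308) in the arterial class, 215 CPM (208 to 224) in the capillary class and 154 CPM (140 to 170) in the venous class. Notch4 was steeper, at 155 CPM (135 to 177), 84.2 CPM (79.3 to 89.3) and 25.7 CPM (20.03 to 32.6). The ratio of arterial over venous cells was 6.01-fold for Notch4 and 1.81-fold for Notch1. The order of the classes was the same for both receptors, and no neighbouring intervals overlapped.

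Dll4 was at 244 CPM (218 to 271) in arterial, 125 CPM (119 to 132) in capillary and 48.5 CPM (40.5 to 57.6) in venous cells. Jag2 was at 282 CPM (255 to 312), 89.4 CPM (84.4 to 94.7) and 54.8 CPM (46.3 to 64.4). Both were lower from class to class. Jag1 differed, at 155 CPM (135 to 177) in arterial cells but 33.5 CPM (30.5 to 36.8) in capillary and 36.9 CPM (30.0 to 44.96) in venous cells, whose intervals overlapped. Its ratio of arterial over capillary cells was 4.61-fold, with a log2 ratio of 2.21 (1.96 to 2.44).

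Hey1 had the widest range of the 8 genes over the 3 classes among those with enough UMIs. It was at 220 CPM (196 to 246) in arterial, 62.0 CPM (57.8 to 66.4) in capillary and 19.8 CPM (14.8 to 25.9) in venous cells, an 11.1-fold difference of arterial over venous. Hes1 did not follow the same order, at 175 CPM (154 to 199) in arterial, 227 CPM (219 to 235) in capillary and 132 CPM (118 to 146) in venous cells. The capillary class was thus the highest for Hes1 and the arterial class for Hey1. With classes taken from clusters, the log2 ratio of arterial over capillary cells changed sign for Hes1, from -0.37 to 0.08. The immediate early genes summed to 10904, 12520 and 6800 CPM in the same classes, the same order as Hes1, and their part in it was not tested. Heyl had 1 UMI in arterial cells, 25 in capillary cells and none in venous cells.

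**Figure D2:**
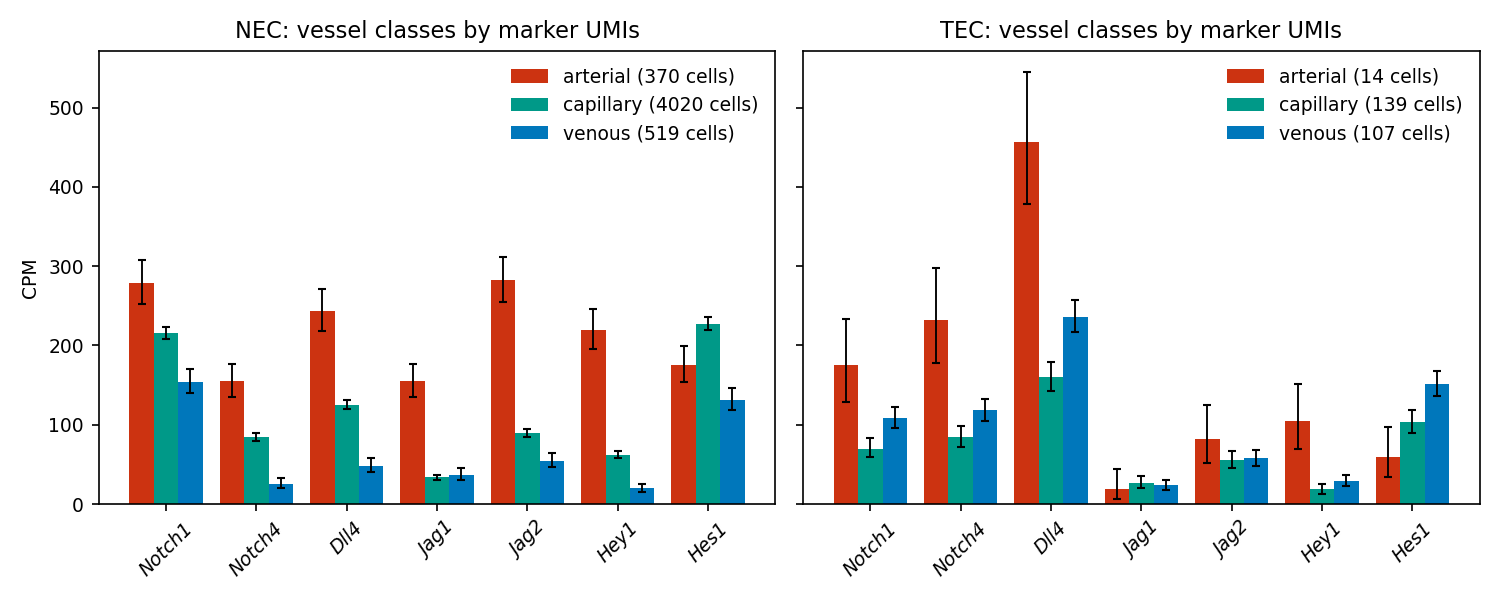
Levels in CPM of 7 Notch genes in the arterial, capillary and venous classes of NECs (left) and TECs (right), bars with 95% Poisson intervals. In NECs the arterial bar is the highest for every gene but Hes1, and in TECs it is the lowest for Jag1 and Hes1.

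The venous class was lower than the capillary class by 2-fold or more for 3 of the 8 genes (Notch4, Dll4 and Hey1), where 8.6% of 11944 genes were. The log2 ratios were -1.71 (-2.08 to -1.36) for Notch4, -1.37 (-1.64 to -1.11) for Dll4 and -1.65 (-2.08 to -1.25) for Hey1. None was higher by that much, where 5.55% of genes were. When venous cells were called without Vwf, which arterial cells also had (2 or more UMIs in 114 of them), 5 genes were lower by 2-fold, and when 1 UMI was enough to call a venous cell, none was. The number thus depends on how strictly a vein is called, and the sign did not change for any of the 3 genes under the 16 alternatives.

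The same markers gave 14 arterial, 107 venous and 139 capillary TECs. The venous and capillary classes were less distinct than in NECs, where 14.1% of genes differed by 2-fold between them in either direction. Between venous and capillary TECs, 1.56% of 9414 genes were higher and 1.95% lower by 2-fold (3.52% together), and of the 7 Notch genes with enough UMIs none was in either direction. Their signs were nevertheless the reverse of those in NECs, with 6 of 7 above 0 and a median log2 ratio of 0.55 beside 0.01 for all genes. Dll4 was at 236 CPM (217 to 257) in venous TECs, above its level in capillary TECs, a log2 ratio of 0.56 (0.36 to 0.76). The log2 ratio was 0.49 (0.20 to 0.77) for Notch4 and 0.64 (0.33 to 0.95) for Notch1, and that of Jag1 was -0.19 (-0.75 to 0.38). Venous TECs had a median of 22545 UMIs and capillary TECs of 9711, and the part of this in the ratios was not tested. Ackr1 and Lbp, which call veins, summed over all TECs to 7.53 and 1.72 CPM, against 99.4 and 29.1 CPM over all NECs, so that tumor veins were called mostly by Vwf (94 of 107).

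Arterial TECs had higher Notch1, Notch4, Dll4 and Hey1 than capillary TECs by 2-fold or more, which is 4 of the 7 genes with enough UMIs, where 6.45% of 8066 genes were higher. None of the 7 was lower by 2-fold, where 8.83% were (15.3% in either direction). Dll4 was at 456 CPM (379 to 544) in 14 arterial TECs and 160 CPM (143 to 179) in capillary TECs, and Hey1 at 105 CPM (69.5 to 151) and 18.4 CPM (12.9 to 25.5). Both genes were thus higher in arterial than in capillary cells in the tumor as well. Of the 14 arterial TECs, 6 rested on 1 UMI of Gja5 plus Bmx, and 12 had 2 or more Vwf UMIs. Arterial TECs had a median of 17194 UMIs and capillary TECs of 9711, and the part of this in the ratios was not tested. Jag1 was at 18.7 CPM (6.07 to 43.6) and 27.1 CPM (20.3 to 35.4), with a log2 ratio of -0.54 (-2.22 to 0.78), where the same ratio was 2.21 in NECs. The upper bound of the tumor interval lies below the lower bound of the normal one, and with 5 Jag1 UMIs in 14 arterial cells of 1 library the difference was not tested.

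To compare the tissues within a class, cells were classed after thinning to equal depth, and levels were taken from all UMIs of these cells. Among capillary cells (222 of the 239 thinned TECs and 3268 of the 3831 thinned NECs) the ratios of TECs over NECs were close to those of all cells. This class holds most of the thinned cells of both libraries, so that its ratios could hardly differ from those of all cells. Dll4 was at a log2 ratio of 0.74 (0.62 to 0.86), Notch4 at 0.41 (0.25 to 0.57), Notch1 at -1.15 (-1.30 to -0.9997) and Hey1 at -1.22 (-1.51 to -0.93). Notch1, Hey1 and Heyl were lower by 2-fold or more, where 23.8% of 11943 genes were, and none was higher, where 11.2% were (35.1% in either direction). Heyl had a single UMI in capillary TECs.

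Venous TECs were few (12 cells with 165579 UMIs, against 341 NECs). In them 6 of the 7 genes with enough UMIs were above 0, against 2 of 8 among capillary cells. Dll4 and Notch4 were higher and Notch1 lower in TECs in both classes, while Hey1 differed in sign. Notch4, Dll4 and Hey1 were higher by 2-fold or more in venous TECs than in venous NECs, 3 of the 7 genes with enough UMIs, where 13% of 7965 genes were, and none was lower, where 16.9% were (29.9% in either direction). Dll4 stood at 459 CPM (362 to 575) in these TECs and 28.0 CPM (20.4 to 37.6) in the NECs, and its log2 ratio was 4.03 (3.48 to 4.60). For Hey1 the levels were 60.4 CPM (29.0 to 111) and 19.1 CPM (12.9 to 27.3). Low Dll4 and Notch4, the mark of normal veins above, was not seen in the tumor cells that carried vein markers. The normal classes at equal depth hold other cells than those above. Markers of high endothelial venules summed to 2453 CPM in venous and 8074 CPM in capillary NECs here, against 29520 and 1705 CPM above. With classes on all UMIs, Dll4 was at 48.5 CPM in venous NECs. The part of this in the ratios was not tested. Ackr1 was at 121 CPM in these 12 cells and 938 CPM in the NECs, and whether the markers call the same vessel in both tissues was not tested. Arterial TECs were 5 cells against 214 NECs, with Dll4 higher by 2-fold and Jag1, Jag2 and Hes1 lower by that much, where 9.86% of 5942 genes were higher and 20.2% lower (30.1% together). Hes1 and Jag1 rested there on 5 and 1 tumor UMIs.

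**Figure D3:**
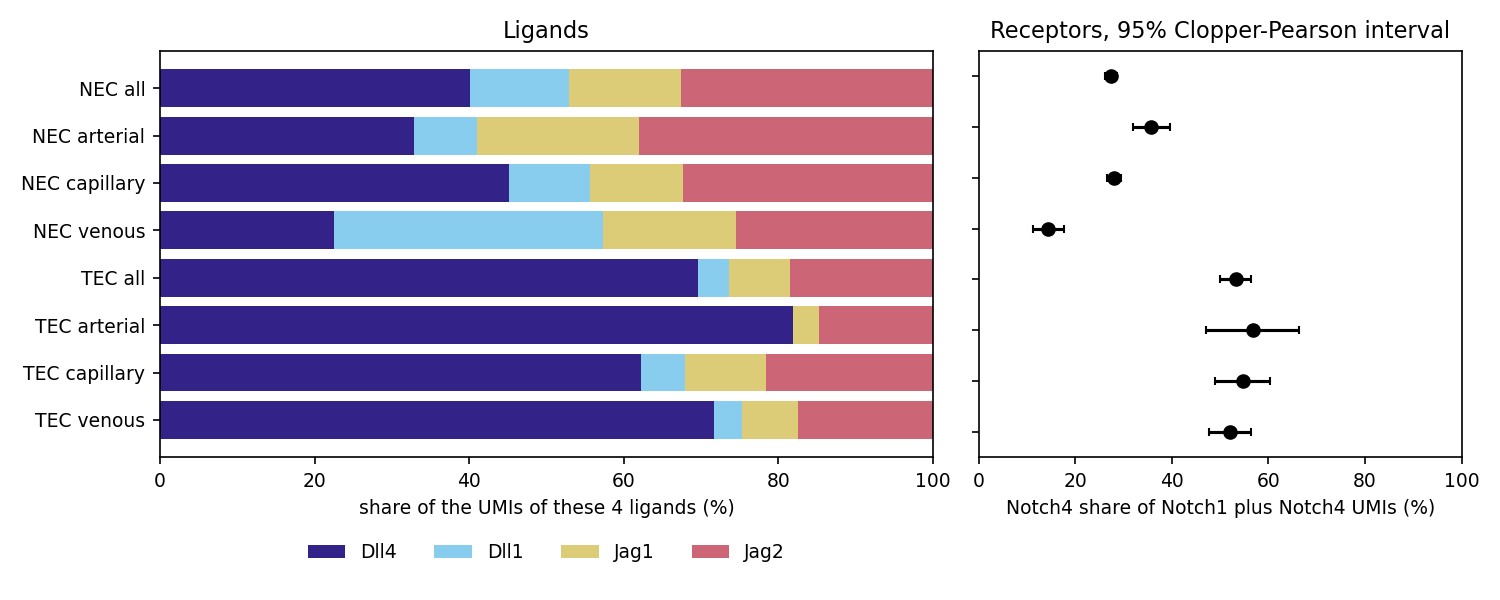
Share in percent of each ligand among the UMIs of Dll4, Dll1, Jag1 and Jag2 (left) and of Notch4 among those of Notch1 plus Notch4 (right, points with 95% Clopper-Pearson intervals), for each library and its vessel classes. The Dll4 share was between 62.2 and 81.9% in the TEC classes and between 22.6 and 45.2% in the NEC classes, and the Notch4 share was above 50% in each TEC class.

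The ligands were also mixed in different proportions in each class. Dll4 made up 32.9% (30.0 to 35.8%) of the ligand UMIs in arterial NECs, 45.2% (43.6 to 46.8%) in capillary NECs and 22.6% (19.2 to 26.2%) in venous NECs. Dll1, a ligand used by many tissues, made up 34.7% (30.8 to 38.8%) in venous NECs and 10.4% (9.44 to 11.5%) in capillary NECs. In TECs Dll4 made up 62.2% (57.8 to 66.4%) in capillary and 71.7% (68.4 to 74.8%) in venous cells. The Notch4 share of the receptor UMIs in NECs was 14.3% (11.3 to 17.8%) in venous, 28.1% (26.7 to 29.5%) in capillary and 35.7% (31.9 to 39.7%) in arterial cells. In TECs it was 52.0%, 54.6% and 56.9%, with overlapping intervals. These shares are read between groups of cells and not between genes.

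NECs formed 17 clusters and TECs 4 when clustered apart, with 66 Notch pathway genes left out of the genes that defined them. A cluster was named for the marker list with the most genes raised in it, if there were 3 or more and 1 of them was among its 10 leading genes, and others were left unnamed. Clusters are numbered within each library from the largest.

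The arterial-like clusters 3 (446 cells) and 9 (220 cells) had the highest Jag1, at 157 CPM (137 to 181) and 202 CPM (173 to 233). The highest of the other NEC clusters was at 92.9 CPM (62.2 to 133), in the mural-like cluster 16. Hey1 in the arterial-like clusters was at 265 CPM (238 to 295) and 203 CPM (174 to 234), and Jag2 at 305 CPM (275 to 337) and 254 CPM (222 to 289). For each of these genes the intervals of clusters 3 and 9 lay above those of the named capillary-like clusters.

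The lowest Dll4, Notch4 and Hey1 of all NEC clusters were in the venous-like clusters 7 (245 cells) and 15 (91 cells) and in cluster 12 (108 cells), which raised 6 venous genes but none among its leading genes. Dll4 was at 13.7, 20.7 and 17.6 CPM in clusters 7, 15 and 12, Notch4 at 10.7, 22.3 and 6.61 CPM, and Hey1 at 1.95, 3.19 and 8.81 CPM. These clusters were poorer in Dll4 and Hey1 than the venous class called by marker UMIs (48.5 and 19.8 CPM). Jag1 was not low in them, at 37.1, 36.7 and 44.1 CPM, beside 24.1 and 25.7 CPM in the capillary-like clusters 0 and 1, with overlapping intervals. Dll4 made up 6.67% (3.69 to 10.9%) of the ligand UMIs in cluster 7.

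Dll4 was also high in cluster 11, at 259 CPM (171 to 377), where it could not be told apart from cluster 3 at 258 CPM (231 to 287). Cluster 11 held 112 shallow cells (median 815.5 UMIs) led by genes of the salivary gland, which summed to 80602 CPM in it. The HEV-like cluster 14 had Dll4 at 81.0 CPM (62.3 to 104) and Hey1 at 23.2 CPM (13.7 to 36.6). Of the 16 pairs of neighbours in the order of the NEC clusters, the intervals overlapped in 15 for Dll4, 14 for Hey1 and 16 for Notch1, so that clusters next to each other are mostly not separated by counting error.

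**Figure D4:**
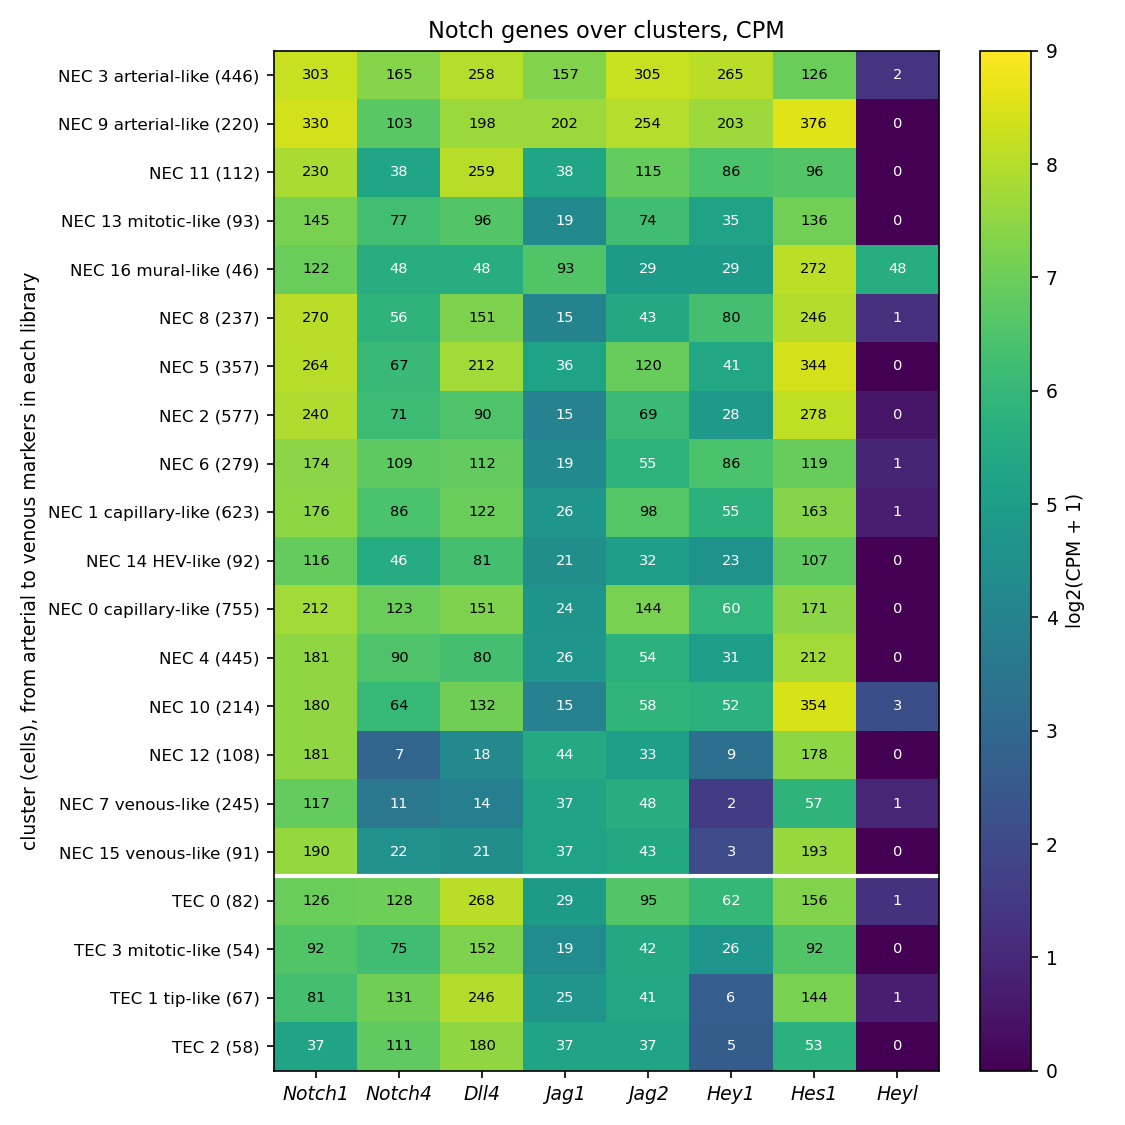
Heat map of the 8 Notch genes over 17 NEC and 4 TEC clusters, with the CPM in each cell and color as log2(CPM + 1), ordered in each library from arterial to venous markers (number of cells in brackets). Dll4, Notch4 and Hey1 are lowest in NEC clusters 7, 12 and 15, and Heyl stands out in NEC cluster 16.

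In the tumor, Dll4 and Hey1 separated. In the tip-like cluster 1 (67 cells), led by genes such as Pgf and Adm, Dll4 was at 246 CPM (221 to 273) and Hey1 at 5.52 CPM (2.38 to 10.9). In cluster 0 (82 cells), which raised 4 arterial and 5 immediate early genes but carried no name, Dll4 was at 268 CPM (242 to 297) and Hey1 at 62.5 CPM (50.1 to 76.98). The intervals of Dll4 overlapped and those of Hey1 did not. The mitotic-like cluster 3 (54 cells) was lower in Dll4, at 152 CPM (134 to 173), with Hey1 at 25.6 CPM (18.4 to 34.8). Cluster 2 held 58 shallow cells (median 2208.5 UMIs) and had no marker list raised.

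Over the 17 NEC clusters, Dll4 and Hey1 had a Pearson correlation of 0.89 of log2(CPM + 10), Dll4 and Notch4 of 0.79, and Jag2 and Hey1 of 0.75. Dll4 and Hes1 had one of 0.27, and Jag1 and Hey1 of 0.40. These describe the clusters, which share 1 library, its depth and its composition. Over all 21 clusters of both libraries, the gene with the levels most like those of Dll4 among 9366 was Notch4 (0.82, and 0.79 over the NEC clusters, where Hey1 at 0.89 and Cmpk2 and Unc5b at 0.80 were more alike), followed by Pcdh1, Cmpk2, Oas2 and Unc5b (0.81 to 0.78). The genes most like Hey1 were Eps8l2, Slc12a5, Msx1, Id1 and Pls3 (0.85 to 0.81), and those most like Jag1 were Scara3, Atp2a2, Pcsk5, Wfdc1 and Rsph9 (0.91 to 0.86).

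Hes1 followed the immediate early genes. Its level was 376 CPM (337 to 418) in cluster 9, 354 CPM (315 to 396) in cluster 10 and 344 CPM (306 to 386) in cluster 5, where the immediate early genes summed to between 21639 and 29733 CPM. It was at 126 CPM (107 to 147) in cluster 3 and 56.6 CPM (43.0 to 73.2) in cluster 7, where they summed to 3079 and 1907 CPM. The arterial-like clusters 3 and 9 thus differed in Hes1 while both were high in Hey1. Over the 17 clusters the correlation of Hes1 with the immediate early genes was 0.86, and that of Hey1 -0.01, of Dll4 0.05 and of Notch1 0.33.

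The same was seen cell by cell. NECs were split by their immediate early UMIs after thinning into 4 ranges, and Hes1 was at 106 CPM (96.1 to 116) in the lowest range and 322 CPM (304 to 340) in the highest, with 141 and 241 CPM between them. Hey1 was at 75.9 CPM (67.9 to 84.6) and 68.8 CPM (60.9 to 77.4) in the lowest and highest ranges, and Dll4 at 120 CPM (110 to 131) and 131 CPM (120 to 143). In TECs, Hes1 was at 85.5 CPM (72.6 to 100) in the lowest range and 220 CPM (193 to 250) in the highest. The level of Hes1 therefore moved with these genes in both libraries, and for Hey1 and Dll4 the intervals of the end ranges of NECs overlapped. Notch1 in NECs was at 177 CPM (164 to 190) in the lowest range, 198 and 220 CPM in the next ones and 237 CPM (223 to 253) in the highest. Notch4 went the other way, from 90.7 CPM (81.8 to 100.2) to 69.8 CPM (61.9 to 78.4). In TECs Notch1 was at 99.3 CPM (85.3 to 115) and 71.7 CPM (56.6 to 89.6) in the end ranges, with overlapping intervals.

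**Figure D5:**
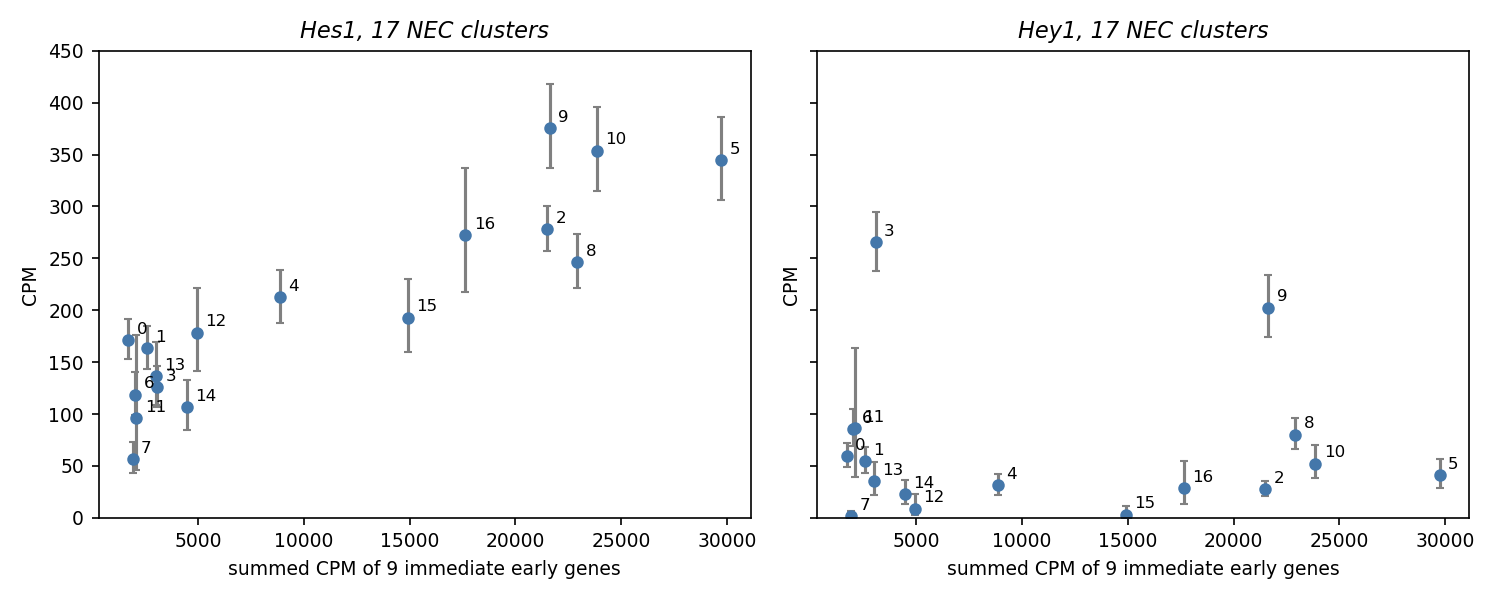
Level in CPM of Hes1 (left) and Hey1 (right) against the summed CPM of 9 immediate early genes in the 17 NEC clusters, each point a numbered cluster with its 95% Poisson interval. Hes1 is higher in clusters rich in immediate early genes, and Hey1 is high in the arterial-like clusters 3 and 9 at either end.

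Heyl was found where mural genes were. In the mural-like cluster 16 (46 cells) Heyl was at 48.1 CPM (26.9 to 79.3), and in none of the other clusters was it above 3.48 CPM. NECs with at least 3 of the 10 mural genes (90 cells) had 17 of the 26 Heyl UMIs, or 33.8 CPM (19.7 to 54.1), and the other 4850 NECs had 9, or 0.535 CPM (0.245 to 1.02). Outside the endothelial cells, 265 normal barcodes with 3 or more mural genes and no Cdh5 or Pecam1 UMI had Heyl at 89.2 CPM (74.8 to 106) and Notch3, the mural receptor, at 575 CPM (537 to 614). Those cells had Dll4 at 2.64 CPM (0.720 to 6.76) and Jag1 at 93.1 CPM (78.4 to 110). Most Heyl UMIs of the NECs were thus in cells that also had mural UMIs, and whether these are doublets, mural cells or free RNA was not tested.

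The other 58 pathway genes were grouped by their role. In TECs over NECs, 49 of them had enough UMIs, of which 1 was higher and 14 were lower by 2-fold or more, with a median log2 ratio of -0.51 beside -0.23 for all genes. Among all genes 10.8% were higher and 24.3% lower, so that the 14 are near the share of all genes.

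Of the remaining receptors and ligands, 4 of 7 had enough UMIs and 3 were lower by 2-fold in TECs, where 24.3% of all genes were. Notch3 was at 8.37 CPM (7.06 to 9.85) in NECs and at 0.430 CPM (0.0521 to 1.56) in TECs, where it had 2 UMIs, a ratio whose log2 interval ran from -7.34 to -2.40. As for Heyl, Notch3 was mostly in the NECs with 3 or more mural genes (97 of 145 UMIs). Dll1 was at 39.2 CPM (36.3 to 42.2) and 12.5 CPM (9.48 to 16.1). Dner, a noncanonical ligand, had 64 UMIs in NECs and none in TECs, at least 5.72-fold lower against a floor of 3 counts. Notch2, a receptor of many other cells, was near 2.2 CPM in both, with 38 and 10 UMIs.

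Glycosyltransferases of the Fringe family set whether a receptor answers to Delta or to Jagged ligands. Lfng had 29.5 CPM (27.0 to 32.2) in NECs and 5.38 CPM (3.48 to 7.94) in TECs, and its log2 ratio was -2.45 (-3.10 to -1.88). Mfng was at 126 CPM (116 to 137) in TECs and 67.4 CPM (63.5 to 71.3) in NECs, with a log2 ratio of 0.91 (0.76 to 1.05). Within this family of enzymes Lfng and Mfng thus differed in sign, and Mfng was under 2-fold.

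Of the 10 genes that cut the receptor, 1 was lower by 2-fold and none higher, where 24.3% and 10.8% of all genes were. It was Aph1c, with 2 UMIs in TECs. The sheddase Adam10 was at 126 CPM (121 to 132) in NECs and 154 CPM (143 to 166) in TECs. Of 12 tested genes of ligand endocytosis and receptor turnover, 4 were lower (Mib2, Neurl1a, Numb and Itch), near the 24.3% of all genes. Numb, an inhibitor of Notch, was at 59.4 CPM (55.9 to 63.2) and 23.0 CPM (18.9 to 27.8).

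In the nucleus, 4 of the 10 genes were lower by 2-fold (the coactivators Maml2, Ep300 and Crebbp and the corepressor Spen), where 24.3% of all genes were. Rbpj, the DNA-binding partner, was at 29.7 CPM (27.2 to 32.3) in NECs and 16.6 CPM (13.1 to 20.7) in TECs, with a log2 ratio of -0.84 (-1.20 to -0.49).

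The other targets went in both directions. Of 8 with enough UMIs, 5 were above 0, and 1 of them past 2-fold, Ccnd1, the cell cycle gene, at a log2 ratio of 1.22 (1.14 to 1.29). Lower by 2-fold was 1, Hey2. Among all genes 10.8% were higher and 24.3% lower, so that 1 of 8 higher is near the share of all genes. Nrarp, a feedback inhibitor that Notch induces, was at 132 CPM (121 to 142) in TECs and 67.8 CPM (63.9 to 71.7) in NECs, a log2 ratio of 0.96 (0.81 to 1.10). Hey2, the relative of Hey1, had 63 UMIs in NECs and none in TECs, at least 5.63-fold lower. Efnb2, the arterial ephrin ligand, was at 129 CPM (124 to 134) in NECs and 68.9 CPM (61.5 to 76.9) in TECs, and Gja4, an arterial gap junction gene, at 83.7 CPM (79.5 to 88.2) and 58.3 CPM (51.6 to 65.7). Unc5b, a guidance receptor, was at 54.7 CPM (48.2 to 61.8) in TECs and 39.9 CPM (37.0 to 43.0) in NECs, and Hes6 at 18.1 CPM (14.4 to 22.4) and 13.2 CPM (11.5 to 15.0). Nrarp, Unc5b and Hes6 thus had the sign of Dll4, and Hey1, Hey2, Efnb2 and Gja4 the opposite one.

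Between the vessel classes of NECs, Nrarp, Gja4, Efnb2, Hey2, Unc5b and Hes6 had the same order as Dll4. Of 8 tested, 3 were higher by 2-fold in arterial than in capillary cells (Hey2, Efnb2 and Gja4), where 5.97% of all genes were. Nrarp was at 113 CPM (96.2 to 132) in arterial, 68.5 CPM (64.0 to 73.1) in capillary and 43.3 CPM (35.8 to 51.9) in venous cells. Gja4 had 395 CPM (363 to 430), 62.1 CPM (57.9 to 66.5) and 24.2 CPM (18.7 to 30.9). In venous over capillary cells 4 targets were lower by 2-fold (Efnb2, Gja4, Unc5b and Hes6), where 8.6% of all genes were. Myc, a growth regulator, was higher, at 53.7 CPM (45.3 to 63.2) against 17.8 CPM (15.6 to 20.2), where 5.55% of all genes were.

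A few upstream genes were higher by 2-fold in venous than in capillary NECs, and others were lower. Of 4 tested other receptors and ligands, 1 was higher and 2 were lower. Of 9 tested genes that cut the receptor 1 was higher and none lower, and of 12 of endocytosis and turnover 1 was higher and 1 lower. Among all genes 5.55% were higher and 8.6% lower. Those that were higher are named here. Psen2, a catalytic subunit of the secretase that releases the receptor, was at 100.3 CPM (88.7 to 113) in venous, 53.7 CPM (42.3 to 67.3) in arterial and 23.9 CPM (21.3 to 26.7) in capillary cells. Neurl3 was at 98.8 CPM (87.3 to 111) in venous and 15.8 CPM (9.88 to 23.9) in arterial cells, and 48.6 CPM (44.9 to 52.6) in capillary cells. Dll1 was at 74.6 CPM (64.6 to 85.7), 60.9 CPM (48.6 to 75.3) and 28.9 CPM (26.0 to 31.9) in venous, arterial and capillary cells. Its intervals in venous and arterial cells overlapped. None of the 10 nuclear genes was past 2-fold in arterial or venous over capillary cells, and the largest distance of Rbpj from 0 in these was a log2 ratio of 0.40 (-0.05 to 0.81).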

How the data were processed

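The authors mapped the reads of each droplet library with Cell Ranger and deposited a table of UMI counts per gene and barcode, without normalization. The submitters' processing notes name Cell Ranger, Seurat and mm10, without versions, and the annotation is not given in the sources used here. Cells were filtered as described, and no doublet caller was run. Counts were summed over cells, and genes with 20 or more UMIs over both groups were compared. The ratio and its interval were tried on simulated Poisson counts with known folds, which is the model the intervals assume. This checks the calculation only, since the simulated cells and libraries had no spread beyond counting error and depth. Clustering used Seurat 5.3.0 (R 4.3.3) with 4000 variable genes, 20 PCs and a resolution of 0.8, and the rest numpy 2.4.6, scipy 1.17.1 and pandas 2.3.3 in Python 3.11.15. Cells of at least 1900 UMIs (3831 NECs and 239 TECs) were thinned to that number. Gene symbols were used as deposited.

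The 8 genes, the pathway and marker lists, the classes and the alternatives were chosen with earlier results of these data known. Named genes are the 8 genes, Notch2, Notch3, Hey2, Efnb2, Rbpj, Nrarp and Gja4, other pathway genes past 2-fold, markers, and the 5 genes most alike to Dll4, Hey1 and Jag1 over clusters. Mfng and Adam10 were named, and Heyl and Notch3 set beside mural genes, after their values were seen. Alternatives covered filters, depth, cycling cells and class rules.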

Additional observations from a re-analysis of the deposited data

Results flagged for a closer look

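The ratios between vessel classes had opposite signs in the 2 libraries for several genes, and none of these differences was tested. For Jag1 the log2 ratio of arterial over capillary cells was 2.21 in NECs and -0.54 in TECs, with 5 Jag1 UMIs in 14 arterial TECs. For venous over capillary cells all 7 genes with enough UMIs had opposite signs. The log2 ratios in NECs and TECs were -0.48 and 0.64 for Notch1, -1.71 and 0.49 for Notch4, and -1.37 and 0.56 for Dll4. Those of Hey1 were -1.65 and 0.67, and those of Hes1 -0.79 and 0.55. Jag1, at 0.14 and -0.19, and Jag2, at -0.71 and 0.047, had TEC intervals that spanned 0.

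Heyl was found in barcodes that none of the comparisons use. In the 1178 normal barcodes without a Cdh5 or Pecam1 UMI it was at 13.0 CPM (10.9 to 15.3), against 1.501 CPM in NECs, and 135 of its 143 UMIs there were in the 265 barcodes with 3 or more mural genes. In the 154 tumor barcodes without Cdh5 or Pecam1 it had no UMI.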

How the results depend on the processing

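No paired analysis was possible because each group is 1 library. Of 463 values of single genes under the alternatives, 14 had the other sign than the reported value, 10 of them of Heyl, 3 of Jag1 in venous over capillary NECs (down to -0.18 from 0.14) and 1 of Hes1 in arterial over capillary NECs (0.08 from -0.37). The 6 whose reported value was past 2-fold were of Heyl: 1.68 for TECs over NECs after thinning, and, for arterial over capillary NECs, 1.45 under 5% mitochondrial UMIs, 0.66 without removal by the 4 markers, 2.20 after thinning, 1.22 with arterial cells at 2 UMIs and 1.33 without the mural- and salivary-led clusters, the last chosen after seeing the data. The cause was not tested.

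For TECs over NECs, the number of genes 2-fold higher was 0 and became 1 without removal by the markers, after thinning, without cycling cells and relative to the median of all genes. The number 2-fold lower was 3 and became 4 under 5% mitochondrial UMIs, 1 without removal by the markers, and 0 without cycling cells or relative to the median. The median log2 ratio of -0.81 moved to -0.20 after thinning and -0.47 without cycling cells.

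For arterial over capillary NECs, the number 2-fold higher was 3 and became 5 without removal by the markers or after thinning, and 6 with arterial cells at 2 UMIs. The 1 gene lower, Heyl, became 0 under 5% mitochondrial UMIs, without removal by the markers, after thinning, with arterial cells at 2 UMIs, with classes by cluster, without lymphatic and HEV list cells, and without the mural- and salivary-led clusters. The median of 0.92 moved to 1.20, 1.51 and 1.19 under 5% mitochondrial UMIs, after thinning and with arterial cells at 2 UMIs. For venous over capillary NECs, 1 gene was higher after thinning, 0 were lower with venous cells at 1 UMI and 5 without Vwf, and the median of -0.78 moved to -1.37 with classes by cluster. The median of arterial over venous NECs, 2.33, moved to 1.71 with venous cells at 1 UMI, 3.06 without Vwf and 2.72 with classes by cluster. Heyl rests on 26 UMIs in NECs and 3 in TECs and the arterial class of TECs on 14 cells, and 1 library per group leaves the spread between animals unknown.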
